A study of Staurois parvus with 11 samples.

Results

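The count rows described here carry the names of 7 neuropeptide precursor genes (gal, QRFP, UCN, NPS, PDYN, CARTPT and UTS2) in whole brain, spinal cord and leg muscle of the Bornean foot-flagging frog Staurois parvus. A row was taken when the first word in the annotation of its first transcript matched one of these names exactly, whatever its case. This gave 13 of the 23777 count rows, from 12 of 19455 gene IDs. GAL and CARTPT matched several gene IDs and the other names 1 each. The names were selected on differences between brain and spinal cord in these same libraries, so that contrast is given below as a description with no test. The animals were adult males of a captive colony with no treatment named, and the study asked which genes mark the tissues that move the hind limb in foot flagging, a visual display. Brain had 2 libraries, spinal cord 4 and leg muscle (from the thigh) 5, each named a biological replicate, with 12339432 to 22686688 counted reads in the nervous tissues and 31242008 to 56082082 in leg muscle.

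Neuropeptide genes encode precursor proteins that are cut by prohormone convertases and stored in dense-core vesicles, from which neurons release the mature peptides onto G protein-coupled receptors. Galanin, QRFP, neuropeptide S and urocortin are best known from hypothalamic and brainstem cell groups, where in rodents they act on feeding, arousal and stress. Dynorphins, the opioid peptides cut from PDYN, and CART peptides are made by neurons of both brain and spinal cord. Urotensin II, the product of UTS2, was first isolated from the spinal neurosecretory system of fish, and in frogs it has been localised to motor neurons of the brainstem and spinal cord. All values below are transcript levels, in CPM (read counts relative to library size, scaled by the TMM method), and peptide was not measured. In such bulk tissue, fewer cells of a type and less RNA per cell cannot be told apart. Levels are compared within a row only, because transcript lengths were not used.

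The libraries matched their labelled tissues by marker genes. Summed over 7 rows of neuron markers, the level was 2375 to 2693 CPM in brain, 6028 to 8825 CPM in spinal cord and 67.2 to 100.1 CPM in leg muscle. In leg muscle nearly all of this was gap43, a growth-associated protein, at 54.9 to 99.1 CPM. Leg muscle 5 had the most reads of elavl4 (73), Stmn2 (103), nefl (38) and the leading NEFM row (74) among the leg muscles. It also held all leg muscle reads of QRFP, UCN and CARTPT 017548-RA, and the part of neuronal transcript in those reads was not tested. Summed over 62 rows of skeletal muscle markers, it was 345899 to 918817 CPM in leg muscle, 61.9 to 366.5 CPM in brain and 100.0 to 2888 CPM in spinal cord. Spinal cord 1 and 2 were read on lane 2 and the other 9 libraries on lane 1. Of 12 rows of hypothalamus and forebrain factors, 5 or 6 had reads in each cord, with sums of 33.0 to 60.7 CPM there (33.9 CPM in cord 4) and of 212 and 248 CPM in the brains, and SIX3, TBR1 and fezf1 had none in any cord.

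Across the 12 member rows that passed the filter on low counts, 8 had both brains above all 4 spinal cords, 1 (UTS2) had all 4 cords above both brains, and 3 overlapped. Over all 13923 rows tested, 13.6% had both brains above all cords and 12.6% had all cords above both brains. These counts, and the values of this contrast below, follow from how the names were picked. The median Log2FC of the 12 rows, brain over spinal cord, was 3.11, against 0 for all rows tested. The remaining row, a single-transcript row of GAL (013174-RA), had 1 and 3 reads in the brains and none elsewhere, and was not tested.

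**Figure D1:**
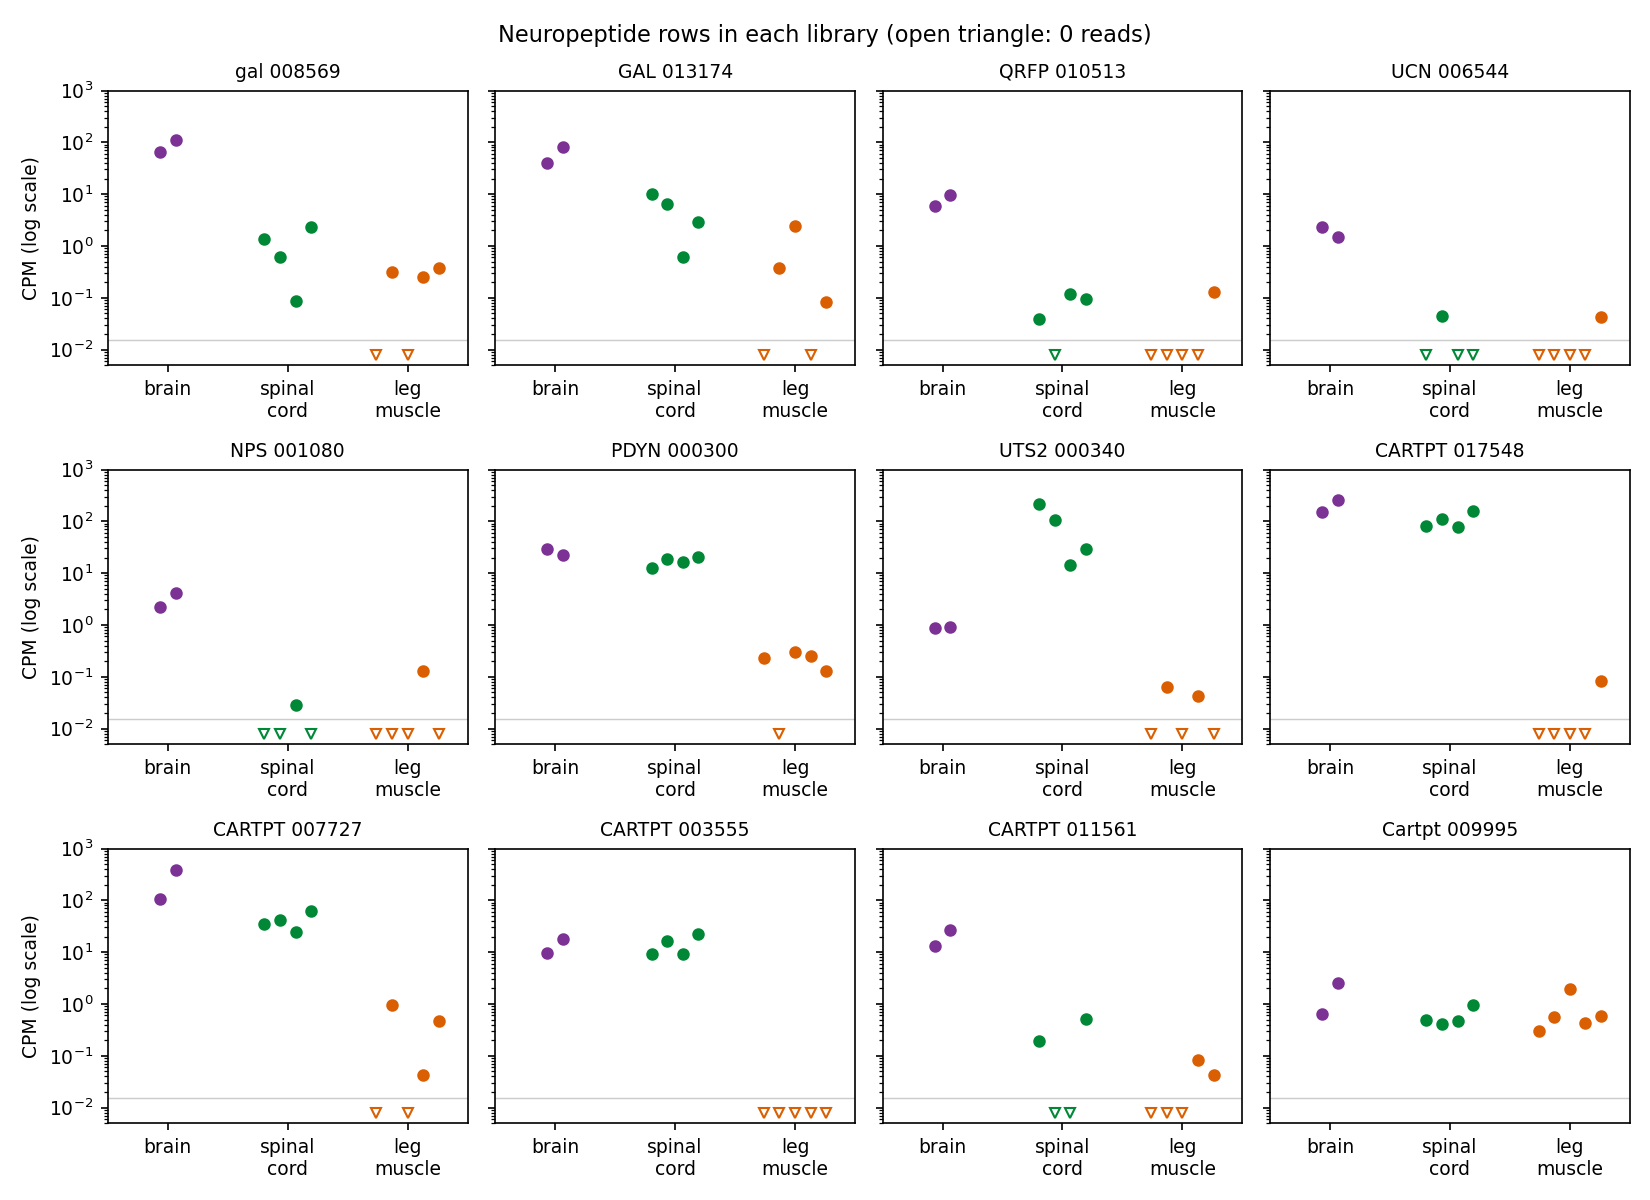
Level of each of the 12 tested neuropeptide rows in every library, in CPM on a log axis, by tissue (2 brains, 4 spinal cords, 5 leg muscles); each point is 1 library, an open triangle at the foot of a panel is a library with 0 reads, and points run left to right by replicate number. UTS2 is the 1 row in which all spinal cords, at 14.0 to 218 CPM, sit above both brains.

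Galanin was read from 2 gene IDs, each far more abundant in brain than elsewhere. The row annotated from the zebrafish protein (gal 008569-RA) stood at 64.2 and 112 CPM in brain. It stood at 1.34, 0.624, 0.0872 and 2.30 CPM in spinal cords 1 to 4. Both brains lay far above every cord, and cord 3 was 26.4 times lower than cord 4, the highest cord. The mean was 81.0-fold higher in brain, and the Log2FC was 6.33 ± 0.95 (SE, 2 brains and 4 cords).

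The second galanin row (GAL 013174-RA+013174-RB), annotated from the quail protein and shared by 2 transcripts of its gene, reached 40.0 and 82.5 CPM in brain. Its cords held 10.1, 6.38, 0.611 and 2.94 CPM. The brains did not overlap with the cords, but the cords differed among themselves by 16.5 times, with cord 3 lowest as for the first row and cord 1, not cord 4, highest. Its mean was 12.2-fold higher in brain, with a Log2FC of 3.62 ± 1.24 (SE). Whether the 2 gene IDs are paralogs was not examined, since sequences were not used here.

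QRFP, the precursor of an RFamide peptide first isolated from frog brain, was nearly restricted to brain. It had 196 and 345 reads in the brains (5.95 and 9.67 CPM) and 1, 0, 4 and 3 reads in the cords. No cord exceeded 0.116 CPM. The mean was 125-fold higher in brain (Log2FC 6.77 ± 0.97 SE).

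UCN and NPS were the rarest members. Urocortin, a relative of corticotropin-releasing hormone that acts through the same receptors, had 75 and 53 reads in the brains (2.28 and 1.48 CPM) and a single read, in cord 2, over the 4 cords. Pooled over libraries, brain was 213 times spinal cord, with a 95% counting interval of 37.6 to 8482. The interval is wide because 1 read sets it, and it covers counting error only.

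Neuropeptide S, which promotes arousal in rodents, had 73 and 149 reads in the brains (2.22 and 4.17 CPM) and 1 read in the cords, in cord 3. The pooled ratio was 369.6, with an interval of 65.7 to 14663. For both peptides the 3 other cords had no read, where a count of 0 allows up to 0.0872 to 0.134 CPM at the depth of these libraries (3 reads).

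PDYN behaved differently, with levels of the same order in brain and spinal cord. It stood at 29.5 and 22.7 CPM in brain and at 12.8, 18.9, 16.5 and 20.4 CPM in the cords. The highest cord lay just below the lower brain, and the cords spanned only 1.60 times. The mean in brain was 1.52-fold that in cord, and the Log2FC of 0.61 ± 0.46 (SE) was small against its error.

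CARTPT matched 5 gene IDs, and the ratio of brain to spinal cord ranged from 0.967 to 116 between them. The row with the most reads (017548-RA, annotated from the human protein) stood at 152 and 261 CPM in brain and at 79.9, 111, 76.6 and 155 CPM in the cords. Cord 4 lay above brain 1, so the tissues overlapped. The Log2FC was 0.97 ± 0.45 (SE).

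A second row (003555-RA, annotated from the bovine protein) was level between the tissues. It held 9.62 and 17.8 CPM in brain and 9.11, 16.7, 9.04 and 21.9 CPM in the cords. The tissues overlapped fully, and the Log2FC was -0.05 ± 0.50 (SE).

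The third (007727-RA, also bovine) stood at 105 and 382 CPM in brain and at 34.6, 40.9, 24.8 and 60.9 CPM in the cords. Both brains lay above all cords, but brain 2 was 3.66 times brain 1. The Log2FC was 2.59 ± 0.84 (SE), and 1.39 without brain 2.

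The fourth (011561-RA, annotated from the human protein) was nearly restricted to brain, at 13.4 and 27.3 CPM. Its reads in the cords were 5, 0, 0 and 16. Cord 4 held most of them, at 0.511 CPM. The mean was 116-fold higher in brain (Log2FC 6.79 ± 1.11 SE).

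The fifth (Cartpt 009995-RA, annotated from the rat protein) was low everywhere, at 0.638 and 2.49 CPM in brain, 0.401 to 0.959 CPM in spinal cord and 0.304 to 1.95 CPM in leg muscle. The 3 tissues overlapped. Its Log2FC, brain over spinal cord, was 1.42 ± 0.78 (SE) and fell to 0.14 without brain 2.

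The 4 cords also ranked the CARTPT rows alike, in that cord 4 was the highest cord for each of the 5. Over all 12 member rows cord 4 was highest in 7, cord 1 and cord 3 in 2 each and cord 2 in 1. Over the 26 other neuropeptide precursor rows tested, cord 4 was highest in 13 and cord 1 in 9. Brain 2 lay above brain 1 in 10 of the 12 member rows, with UCN and PDYN the exceptions, and in 21 of the 26 other precursor rows. The receptor and peptide processing rows described below went the other way. Brain 1 lay above brain 2 in 11 of 12 receptor rows and in all 8 processing rows. Cord 4 was highest in 1 and 0 of them. The shares of all rows were not computed, so these counts are no result about the members.

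**Figure D2:**
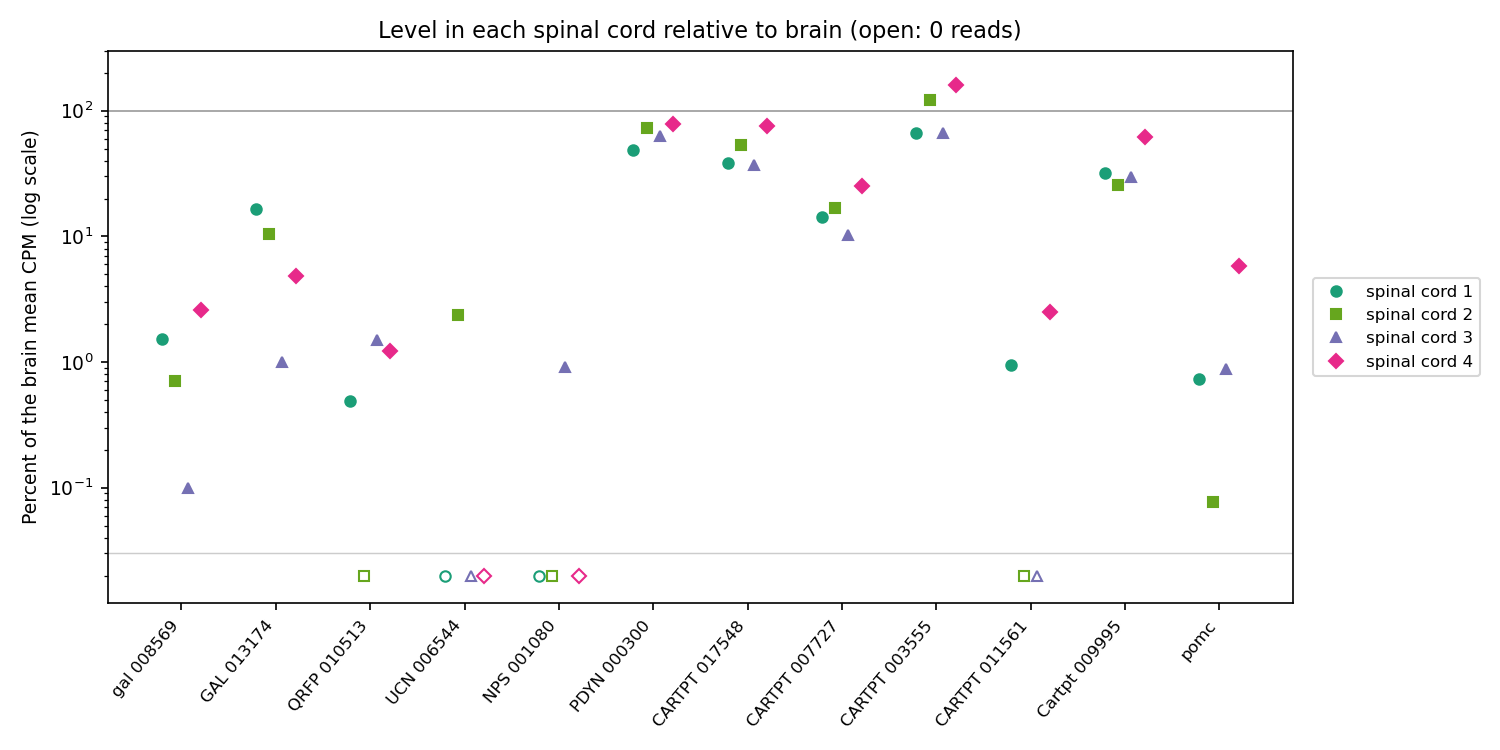
Level of each member row higher or level in brain (UTS2 is left out), and of pomc, in each of the 4 spinal cords as a percent of the mean CPM of the 2 brains, on a log axis; each symbol is 1 cord, open symbols at the foot are cords with 0 reads, and the grey line marks 100%. The gal row reached 2.61% of its brain level in cord 4 and 0.0989 to 1.52% in the other cords, and pomc reached 5.84% in cord 4. For pomc the brain mean is set largely by brain 1, at 1275 CPM against 127 CPM in brain 2.

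Cord 4 also held more of some other transcripts that were abundant in brain. Of genes chosen after their values were seen, pomc, the precursor of melanocortins and of the hormone ACTH, stood at 41.0 CPM in cord 4. In cords 1 to 3 it stood at 5.09, 0.535 and 6.16 CPM. These levels are 5.84% of the brain mean in cord 4 and 0.0763 to 0.879% in the other cords. The brains differed widely for pomc, at 1275 CPM in brain 1 and 127 CPM in brain 2, so brain 1 largely sets that mean. The gonadotropin-releasing hormone gene gnrh1 had 1.21 CPM in cord 4 and at most 0.115 CPM in the others. The highest gal level of any cord fell in the same library, and the part of these transcripts in the member levels was not tested. Without cord 4, 10 of the 12 member rows had both brains above the other 3 cords, against 8 with it. Leaving out any cord can only keep or raise this count. The share of all rows without cord 4 was not computed, so the rise is no result about the members.

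UTS2 was the member with the opposite pattern. It had 29 and 33 reads in the brains, 0.881 and 0.925 CPM. In spinal cords 1 to 4 it stood at 218, 108, 14.0 and 28.9 CPM. Every cord lay above both brains, the lowest of them by more than an order of magnitude, while the brains were nearly equal. The mean was 102-fold higher in spinal cord, and the Log2FC, brain over spinal cord, was -6.67 ± 1.18 (SE).

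The cords themselves fell into a high and a low pair for UTS2. Cords 1 and 2 averaged 7.60 times cords 3 and 4, and the highest was 15.5 times the lowest. UTS2B, the precursor of the urotensin II-related peptide and no member of the selected names, was split in the same way, at 129.6, 55.7, 3.60 and 7.83 CPM in the cords against 0.698 and 1.09 CPM in brain. For UTS2B, cords 1 and 2 averaged 16.2 times cords 3 and 4. Of the members, GAL 013174-RA+013174-RB was divided the same way at 4.64 times, and PDYN was not, at 0.857 times.

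These pairs of cords were also the pairs of sequencing lanes, so lane, frog and dissection cannot be told apart as sources of the split. Motor neuron markers ran in the same direction: Mnx1, a homeobox factor of motor neurons, stood at 6.12, 5.08, 2.97 and 2.75 CPM and lhx3 at 12.2, 9.41, 3.29 and 2.24 CPM. CHAT, the acetylcholine-synthesising enzyme, did not divide the pairs, at 14.0, 3.88, 5.23 and 2.27 CPM. Rows of Pkd1l2, a polycystin of the neurons that contact the cerebrospinal fluid, ran the other way. Row 012589-RA stood at 23.5, 28.1, 44.6 and 42.7 CPM. GATA3, from the same marker list, ran in the direction of UTS2, at 8.73, 7.40, 3.23 and 3.80 CPM. Summed over all 14 rows of motor neuron and cerebrospinal fluid contacting neuron markers, of which 12 had reads in each cord, the level was 91.1 to 111.6 CPM in spinal cord, 45.0 and 46.9 CPM in brain and 1.34 to 6.40 CPM in leg muscle. Skeletal muscle markers summed to 2734 and 2888 CPM in cords 1 and 2 and to 398.1 and 100.0 CPM in cords 3 and 4, and the part of that muscle transcript in the UTS2 levels was not tested. UTS2 itself was at most 0.0636 CPM in leg muscle. Among cords 3 and 4 alone, which shared lane 1 with the brains, the Log2FC of UTS2 (000340-RA) was -4.55, and both cords remained above both brains.

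**Figure D3:**
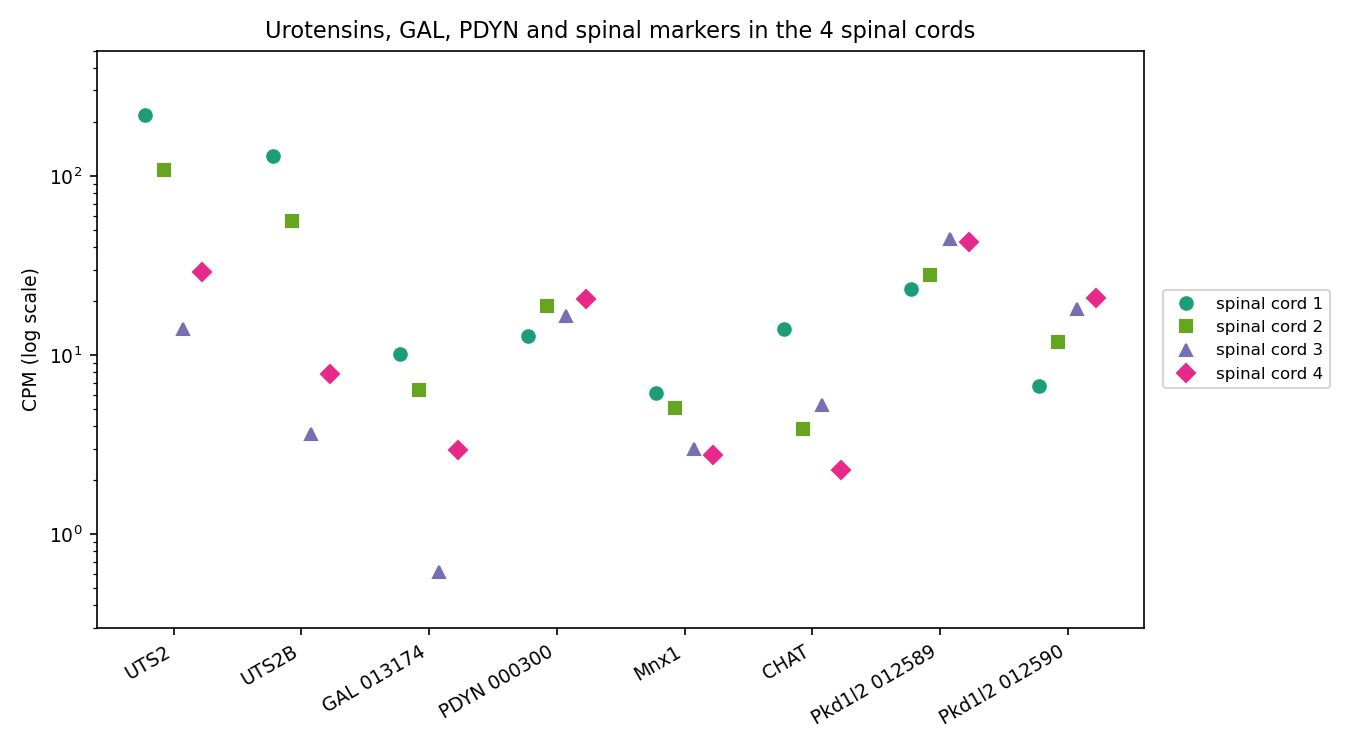
Levels of UTS2, UTS2B, GAL 013174, PDYN and 4 rows of spinal neuron markers in the 4 spinal cord libraries, in CPM on a log axis; each symbol is 1 library, and cords 1 and 2 were read on lane 2, cords 3 and 4 on lane 1. UTS2 and UTS2B are 7.60 and 16.2 times higher in cords 1 and 2 on average, Mnx1 is higher there too, and the Pkd1l2 rows are lower.

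Leg muscle gives the level of these transcripts in a tissue without neuron cell bodies. The comparisons with leg muscle share the brain and cord libraries with the contrast that selected the names, and share the leg muscle libraries with each other, so they are set side by side only. By the edgeR quasi-likelihood test with Benjamini-Hochberg adjustment over the 13923 rows (called at an adjusted p under 0.05), 11 of the 12 member rows were higher in brain than in leg muscle, where 28.7% of all rows tested were. Of these, QRFP, UCN, NPS and CARTPT 011561-RA passed the filter only by being high in both brains, so they had to differ, and with at least 10 counts required in at least 5 libraries the count was 7. In spinal cord 7 of 12 were higher than in leg muscle, where 29.9% of all rows were. The median Log2FC of the 12 rows was 7.44 for brain over leg muscle and 2.77 for spinal cord over leg muscle, against 0.11 and 0.10 for all rows. Both brains lay above all 5 leg muscles in 11 rows and all 4 cords did in 5. The share of all rows without overlap with leg muscle was not computed, so these counts are no result about the members.

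PDYN, UTS2 and 3 of the CARTPT rows were the members that stood apart from leg muscle in both nervous tissues with every library. PDYN had 3, 0, 5, 6 and 3 reads in leg muscles 1 to 5, none above 0.305 CPM. Its Log2FC over leg muscle was 7.11 ± 0.51 in brain (adjusted p = 8.2e-07) and 6.51 ± 0.48 in spinal cord (adjusted p = 6.9e-07).

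CARTPT 017548-RA had 2 reads over all 5 leg muscles, and the pooled ratio was 9665 for brain and 4893 for spinal cord, with 95% counting intervals of 2675 to 79817 and 1354 to 40411 (adjusted p = 1.1e-07 and 1.0e-07). CARTPT 003555-RA had no read in any leg muscle, and was at least 428-fold higher in brain and at least 435-fold higher in spinal cord, taking 3 reads over the 5 libraries as the floor (adjusted p = 1.1e-05 and 6.7e-06). Neither row overlapped with leg muscle in either tissue.

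CARTPT 007727-RA had 0, 15, 0, 1 and 11 reads in leg muscle, at most 0.954 CPM. The Log2FC was 9.68 ± 1.00 for brain and 7.08 ± 0.90 for spinal cord over leg muscle (adjusted p = 1.1e-05 and 4.0e-05). The lowest cord, at 24.8 CPM, remained far above the highest muscle.

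UTS2 had 2 reads over all leg muscles. Spinal cord was 3857 times leg muscle in the pooled counts (interval 1068 to 31857, adjusted p = 3.3e-06). Brain was 41.8 times leg muscle (interval 11.1 to 353, adjusted p = 0.0047), so the few UTS2 reads of brain still lay above muscle.

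The galanin rows were called in spinal cord over leg muscle, although their libraries overlapped there. gal 008569-RA had 0, 5, 0, 6 and 9 reads in leg muscle, up to 0.379 CPM, which lay above cord 3. Its Log2FC was 8.71 ± 0.98 for brain over leg muscle (adjusted p = 2.2e-05) and 2.38 ± 0.86 for spinal cord (adjusted p = 0.033). Without cord 4 the latter was 1.64, with an adjusted p of 0.13, and the call was also lost without cord 1, brain 2 or any of leg muscles 1, 3 and 4.

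GAL 013174-RA+013174-RB had 0, 6, 39, 0 and 2 reads in leg muscle. Leg muscle 3, at 2.38 CPM, lay above cord 3. The Log2FC was 6.78 ± 1.30 for brain (adjusted p = 0.0011) and 3.16 ± 1.11 for spinal cord (adjusted p = 0.030), and for spinal cord it was 1.56, with an adjusted p of 0.36, without the lane 2 cords. The cord call was likewise lost without cord 1, cord 2, brain 2 or any of leg muscles 1, 2 and 5.

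QRFP, UCN and NPS separated brain from leg muscle but not spinal cord from leg muscle. Over the 5 leg muscles QRFP had 3 reads, all in leg muscle 5, UCN 1 read and NPS 3 reads, all in leg muscle 4. The pooled ratio of brain to leg muscle was 243 for QRFP (interval 82.9 to 1184, adjusted p = 5.1e-05). It was 173 for UCN (30.5 to 6878, adjusted p = 1.5e-04) and 99.9 for NPS (33.7 to 488, adjusted p = 2.7e-04). These rows passed the filter only through the brains, so their adjusted p-values for brain are no separate support for the difference. In spinal cord, QRFP was 2.16 times leg muscle with an interval of 0.519 to 12.7 (adjusted p = 0.44), and it was called there only without leg muscle 5 (adjusted p = 0.045) or with library totals alone (adjusted p = 0.047). For UCN and NPS both tissues were at or under 3 reads, and no ratio is given.

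CARTPT 011561-RA was higher in brain than in leg muscle by a pooled ratio of 637 (interval 217 to 3091, adjusted p = 6.9e-05). This row too passed the filter only through the brains, so that adjusted p is no separate support for the difference. In spinal cord its ratio was 5.68 (1.69 to 29.7), which the test across libraries did not call (adjusted p = 0.12) except with library totals alone (adjusted p = 0.0056). Cartpt 009995-RA was called in neither comparison (adjusted p = 0.27 and 0.62), with Log2FC of 1.03 ± 0.75 and -0.39 ± 0.64. With library totals alone, which moved the median of all rows to 1.96, its Log2FC in brain was 2.72 (adjusted p = 0.0074).

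**Figure D4:**
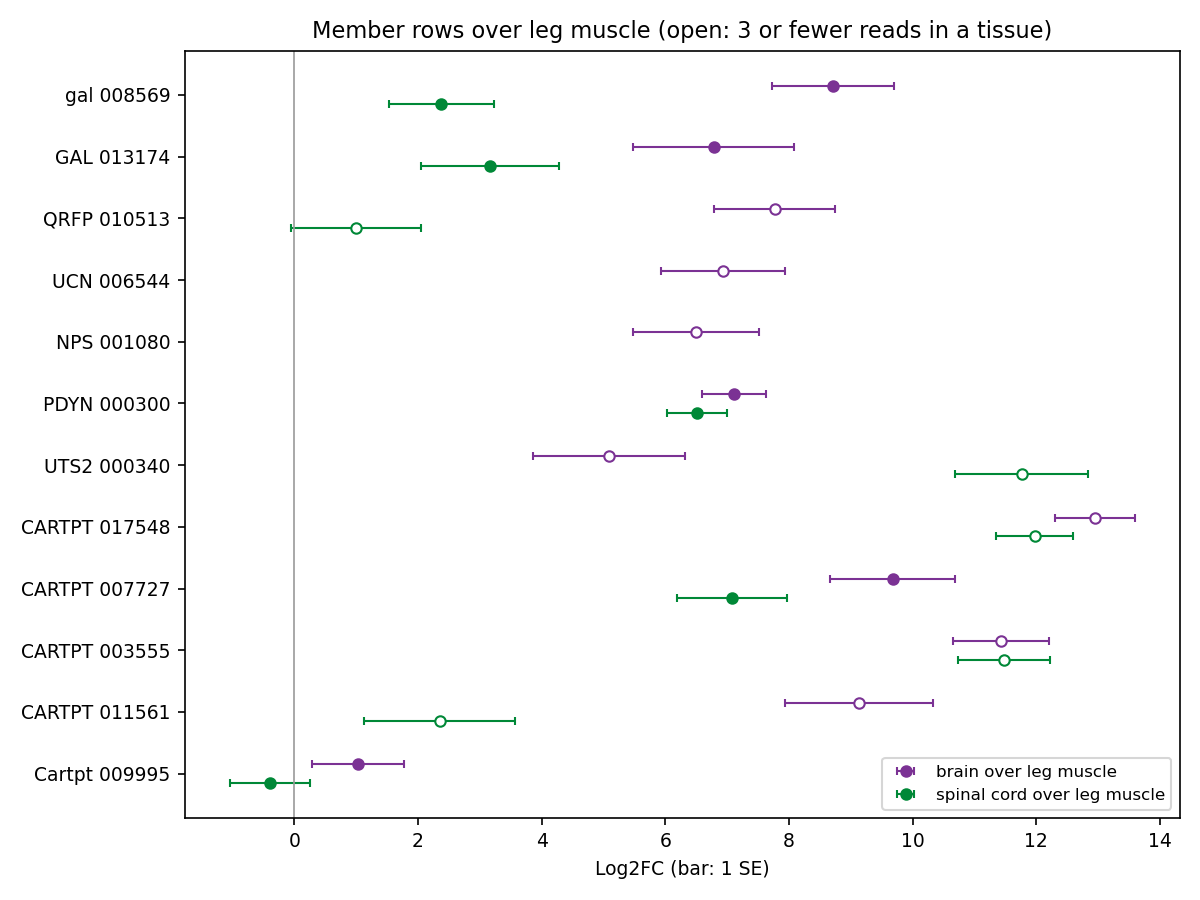
Log2FC with 1 SE for the 12 tested member rows, brain over leg muscle and spinal cord over leg muscle, from the edgeR fit of all 11 libraries; open points are rows with 3 or fewer reads in 1 of the tissues, whose fitted values depend on the prior count, and UCN and NPS are not drawn for spinal cord. PDYN, at 7.11 and 6.51, lies far above 0 in both comparisons, and Cartpt 009995, at 1.03 and -0.39, lies near 0 in both.

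Receptors of galanin, QRFP, urocortin and urotensin II, and the protein that binds urocortin, matched 16 rows, of which 12 were tested. No row of a receptor for neuropeptide S, dynorphins or CART peptides was among them. By the same test 11 of the 12 rows were higher in brain than in leg muscle. In spinal cord 9 were higher than in leg muscle, and 1 was higher in brain than in spinal cord. Of all rows tested, 28.7%, 29.9% and 1.19% were called in these directions. The median Log2FC was 4.95 over leg muscle in brain and 4.21 in spinal cord, or 4.52 and 3.58 with rows unread in leg muscle set at their floor. Brain over spinal cord it was 0.73. All tested receptor rows except Galr2 015929-RA had reads in spinal cord. In 3 of the 12 the Log2FC leaned to spinal cord. No receptor row was called higher in spinal cord than in brain, where 0.840% of all rows tested were. None had an unadjusted p under 0.05 in that direction, and DESeq2 called none.

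Among galanin receptors, Galr1 stood at 7.44 and 3.45 CPM in brain and at 4.13, 2.41, 2.99 and 1.09 CPM in the cords (Log2FC 1.03 ± 0.85, adjusted p = 0.68). Galr2 002639-RA stood at 10.2 and 10.1 CPM in brain against 5.63 to 8.47 CPM in the cords (adjusted p = 0.64). Galr2 015501-RA leaned to spinal cord, with 14.3 to 26.9 CPM there and 13.7 and 9.75 CPM in brain, with no overlap but a Log2FC of -0.68 ± 0.76 (adjusted p = 0.79). None of these 3 receptor rows was called between brain and cord. The galanin precursor rows are not set against this, since their name was picked on that contrast.

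The 1 receptor row called between brain and spinal cord was Galr2 015929-RA, with 0.698 and 0.448 CPM in brain and no read in any cord, at least 21.6-fold higher in brain (adjusted p = 0.047). This row passed the filter only through the brains, and with no filter its adjusted p was 0.062. The call was also lost without brain 1 (adjusted p = 0.23) and without any other single library except leg muscle 5. Over leg muscle this row was called in brain, with a pooled ratio of 26.3 (interval 6.82 to 225, adjusted p = 0.0098), which was lost without brain 1 (adjusted p = 0.079). Over leg muscle Galr1, Galr2 002639-RA and Galr2 015501-RA were called in brain (adjusted p = 0.0018, 3.9e-07 and 0.0020) and in spinal cord (adjusted p = 0.0049, 3.3e-07 and 2.5e-04).

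The 2 rows of QRFPR, the QRFP receptor, were low in both nervous tissues. QRFPR 014381-RA had 1.37 and 1.15 CPM in brain and 0.765, 0.535, 0.436 and 0.288 CPM in the cords (Log2FC 1.31 ± 0.97, adjusted p = 0.64). QRFPR 014382-RA had 0.789 and 0.476 CPM in brain and 0.0892 to 0.574 CPM in the cords (Log2FC 0.89 ± 0.84, adjusted p = 0.74). Both were called over leg muscle, in brain (adjusted p = 0.0035 and 0.0011) and in spinal cord (adjusted p = 0.013 and 0.0021). QRFP itself was nearly unread in the cords, which follows from how its name was picked. For 014381-RA the cord call was lost without the lane 2 cords (adjusted p = 0.084).

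Urocortin acts on the receptors of corticotropin-releasing hormone, of which crhr1 was read as several rows of 1 gene ID. The row shared by its 3 transcripts stood at 19.5 and 9.36 CPM in brain and at 15.4, 9.85, 10.2 and 9.68 CPM in the cords (Log2FC 0.35 ± 0.71, adjusted p = 0.90). The row of 000528-RC stood at 8.87 and 5.32 CPM against 4.77 to 7.85 CPM (adjusted p = 0.85), and had no read in leg muscle, at least 217-fold below brain and at least 176-fold below spinal cord. The shared row was also higher than leg muscle, in brain (adjusted p = 1.5e-05) and in spinal cord (adjusted p = 1.1e-05). Another row, 000528-RC+000528-RB, had at most 0.421 CPM and was not called (adjusted p = 0.87 between brain and spinal cord, 0.061 and 0.096 over leg muscle), except over leg muscle with library totals alone (adjusted p = 0.010 in brain and 0.017 in spinal cord) and as part of the gene's summed counts (5.6e-06 and 4.0e-06).

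The binding protein crhbp stood at 16.0 and 12.8 CPM in brain and at 43.3, 19.2, 6.83 and 10.2 CPM in the cords. It overlapped between them (Log2FC -0.46 ± 0.94, adjusted p = 0.91), was higher in cords 1 and 2 than in 3 and 4, and was called over leg muscle in brain (adjusted p = 3.9e-04) and spinal cord (adjusted p = 1.3e-04).

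The urotensin II receptor was read from 4 rows, 2 of them tested. Uts2r 015317-RA was the receptor row most evenly spread over tissues, with 9.23 and 5.996 CPM in brain, 4.73 to 14.2 CPM in the cords and 1.89 to 3.56 CPM in leg muscle. It was higher than leg muscle in spinal cord (Log2FC 1.77 ± 0.35, adjusted p = 0.0010) and in brain (1.35 ± 0.41, adjusted p = 0.016), and without brain 1 the latter was 0.94 with an adjusted p of 0.21. Between brain and spinal cord its Log2FC was -0.42 ± 0.45 (adjusted p = 0.77). Uts2r 014953-RA stood at 3.22 and 4.09 CPM in brain and 0.895 to 2.50 CPM in the cords (Log2FC 1.19 ± 1.00, adjusted p = 0.69). It was called over leg muscle in brain (adjusted p = 0.021), a call lost without either brain, and not in spinal cord (adjusted p = 0.087), where it was called without leg muscle 5 (adjusted p = 0.0021), with library totals alone (0.0080) and by DESeq2 (0.041).

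Other neuropeptide precursors, from a list of names that was drawn up for this report and includes UTS2B, matched 28 rows, of which 26 were tested. In brain against spinal cord 4 rows were higher in brain, where 1.19% of all rows tested were, and none in spinal cord, where 0.840% were. Over leg muscle 25 rows were higher in brain, where 28.7% of all rows tested were, and 22 in spinal cord, where 29.9% were. Hcrt and gnrh1 passed the filter through the brains, so their calls for brain over leg muscle are no separate support. The median Log2FC of the 26 rows was 1.26 for brain over spinal cord. It was 7.77 for brain over leg muscle and 6.65 for spinal cord over leg muscle. The last 2 were 7.60 and 6.51 with rows unread in leg muscle set at their floor. As a group these precursors were thus read in both nervous tissues. In 15 of the 26 both brains lay above all cords, against 13.6% of all rows tested.

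The 4 precursors higher in brain were cortistatin, relaxin 3, neurotensin and the precursor of neuropeptide FF. RLN3, a peptide of the brainstem nucleus incertus in rodents, stood at 15.3 and 22.9 CPM in brain and 1.88 to 4.19 CPM in the cords (Log2FC 2.50 ± 0.39, adjusted p = 0.0075). Cort, a relative of somatostatin, stood at 31.6 and 35.1 CPM in brain and 0.204 to 1.44 CPM in the cords (5.91 ± 0.81, adjusted p = 0.014). NTS stood at 202 and 695 CPM in brain and 14.1 to 38.7 CPM in the cords (4.31 ± 0.82, adjusted p = 0.021). NPFF stood at 18.2 and 41.9 CPM in brain and 1.07 to 7.49 CPM in the cords (2.99 ± 0.67, adjusted p = 0.046). In each of the 4, both brains lay above all cords, and none of the 4 was called without the lane 2 cords. Without brain 2, which left 1 brain, the Log2FC were 2.18 for RLN3, 5.86 for Cort, 3.18 for NTS and 2.24 for NPFF. With 1 brain the spread between brains is not measured, so these sizes do not show that the calls hold. The NTS call was also lost without any of cords 1, 2 and 3, and that of Cort without cord 2. NPFF lost its call without any of cords 1, 3 and 4 or leg muscles 1, 2 and 4. It was also not called with library totals alone or with only the 2 tissues compared.

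In the other direction no precursor passed the test, and 2 rows had an unadjusted p under 0.05. The rows with the lowest p were CALCA and UTS2B. CALCA, the precursor of calcitonin gene-related peptide and a product of motor and sensory neurons, stood at 165, 125, 53.6 and 61.2 CPM in the cords and 18.7 and 13.8 CPM in brain, with a Log2FC, brain over spinal cord, of -2.64 ± 0.63 (adjusted p = 0.057). UTS2B was 54.9-fold higher in spinal cord on average, with no overlap, but its Log2FC of -5.77 ± 1.67 had an adjusted p of 0.17. Both rows were called by DESeq2 (adjusted p = 6.5e-04 for CALCA and 0.012 for UTS2B). SPX (Log2FC -0.29 ± 0.60) and GHRH (-0.34 ± 0.69) overlapped between the tissues (adjusted p = 0.91 for both).

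**Figure D5:**
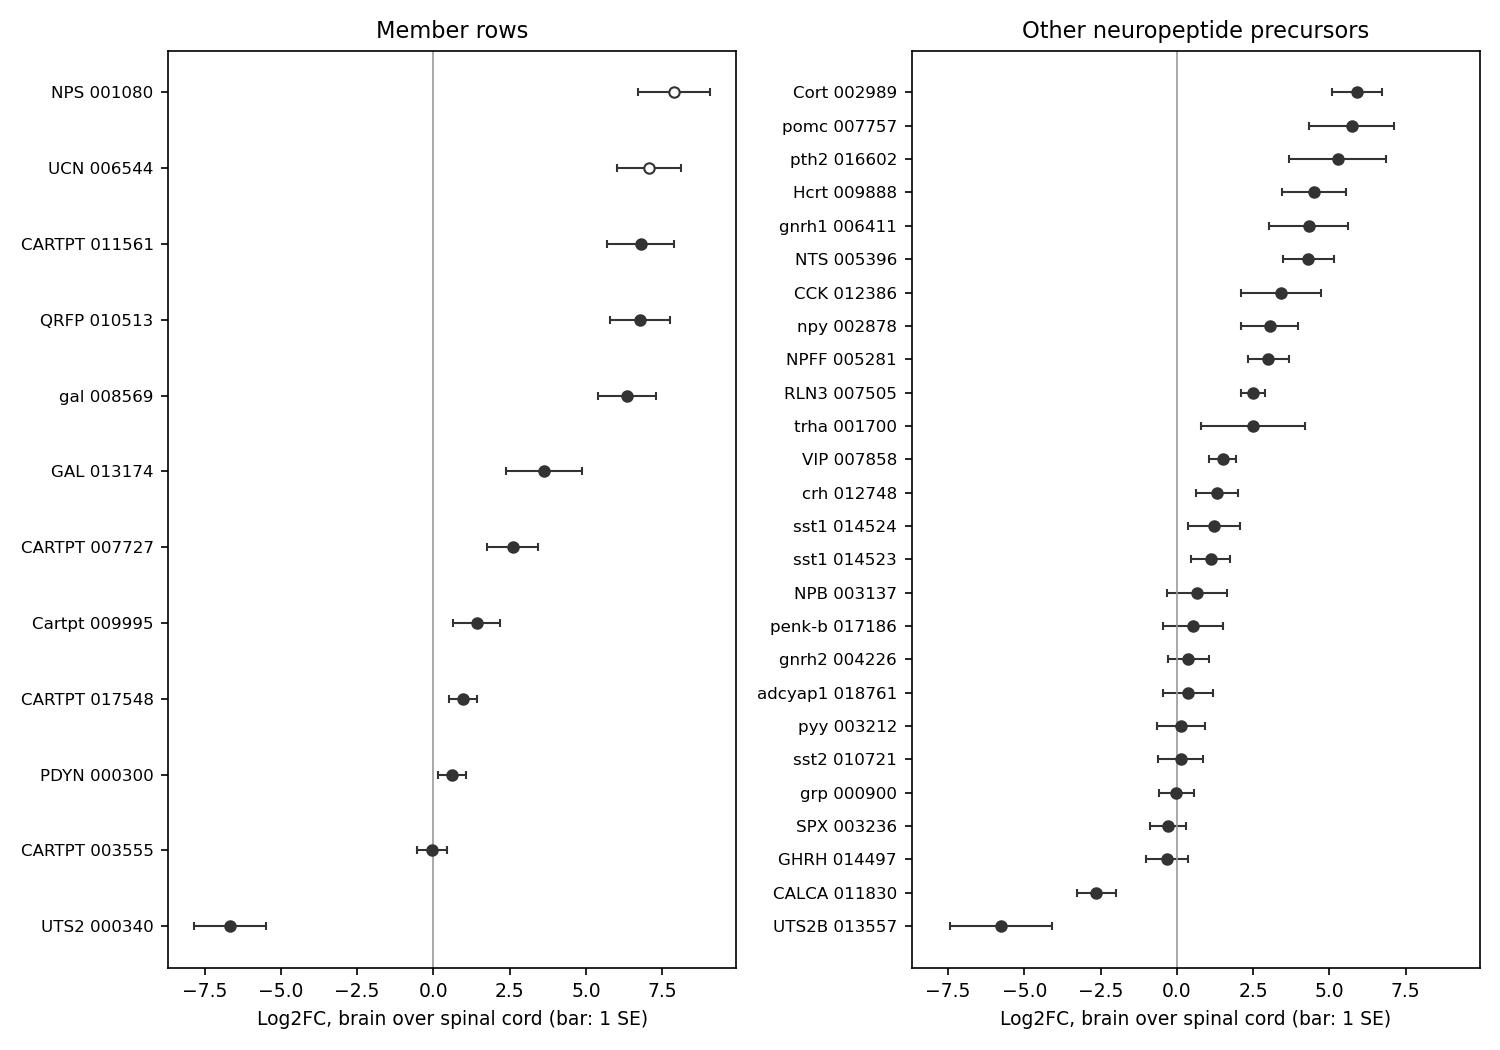
Log2FC, brain over spinal cord, with 1 SE, for the 12 tested member rows (left) and the 26 tested rows of other neuropeptide precursors (right), from the edgeR fit of all 11 libraries; open points are rows with 3 or fewer reads in spinal cord, whose fitted values depend on the prior count. UTS2 and UTS2B, at -6.67 and -5.77, are the lowest of their panels.

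Against leg muscle, the precursors with the lowest p were VIP, RLN3, grp and sst1 in brain and grp, VIP, CALCA and sst1 in spinal cord. VIP, which encodes vasoactive intestinal peptide, had a Log2FC of 7.83 ± 0.49 in brain and 6.34 ± 0.45 in spinal cord (adjusted p = 3.5e-07 and 5.7e-07). For grp, the precursor of gastrin-releasing peptide, they were 9.83 ± 0.74 and 9.85 ± 0.71 (adjusted p = 1.0e-06 and 6.0e-07). Both were thus read well above leg muscle in the cords. QRFP, UCN and NPS were not, and their low cord reads follow from how the names were picked. RLN3 in brain (6.94 ± 0.43, adjusted p = 3.1e-07), CALCA in spinal cord (6.80 ± 0.53, adjusted p = 1.0e-06) and sst1 014523-RA, a somatostatin row, in both (9.76 ± 0.74 and 8.65 ± 0.69, adjusted p = 1.1e-06 and 1.2e-06) were also higher than leg muscle.

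The enzymes and vesicle proteins that make and store neuropeptides matched 8 rows, all tested. All 8 were higher than leg muscle in brain, where 28.7% of all rows tested were, and in spinal cord, where 29.9% were. None was called between brain and spinal cord, where 2 had an unadjusted p under 0.05, both toward brain, and DESeq2 called 1. Their median Log2FC was 0.90 for brain over spinal cord, 7.03 for brain over leg muscle and 5.50 for spinal cord over leg muscle. PTPRN2, a dense-core vesicle membrane protein, stood at 45.6 CPM in each brain and 11.1 to 13.3 CPM in the cords (Log2FC 1.93 ± 0.52, adjusted p = 0.091). PAM, which amidates peptide C termini, stood at 112 and 63.9 CPM in brain, 40.8 to 62.8 CPM in the cords and 19.2 to 24.4 CPM in leg muscle (brain over spinal cord 0.83 ± 0.27, adjusted p = 0.18). It was the row of the list with the highest leg muscle level.

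Cpe, the carboxypeptidase that trims cut peptides, had a Log2FC, brain over spinal cord, of 1.24 ± 0.57 (adjusted p = 0.36), and CADPS2, a vesicle priming factor, one of 1.43 ± 0.81 (adjusted p = 0.48). Pcsk1n, an inhibitor of prohormone convertase, was level between them at 454 and 353 CPM in brain and 352 to 601 CPM in the cords (-0.12 ± 0.84, adjusted p = 0.98). In 5 of the 8 rows both brains lay above all cords, against 13.6% of all rows tested. Processing genes thus leaned to brain without passing the test. Each of the 8 was read in the cords, where QRFP, UCN and NPS had 0 to 4 reads. The low cord reads of QRFP, UCN and NPS follow from how the names were picked.

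The rows whose pattern over the 11 libraries lay closest to each member were found by the root mean square difference of log2 CPM after centring each row on its own mean, with smaller values closer. For the leading row of UTS2 the closest named row was UTS2B, at 0.704, and the next, SLC30A3 and Olig3, were at 1.30 and 1.38. UTS2 thus had 1 near neighbour and then a gap. NPS lay closest to SIX3 (0.446), Nkx2-1 (0.614) and CABP2 (0.624), and UCN to HTR3A (0.339), SIX3 (0.358) and rax-b (0.448). SIX3 had no read in any cord or leg muscle, and UCN and NPS had at most 3 reads in any of those libraries. Low rows read almost only in brain lie close to each other by this measure, so these neighbours give no site of expression.

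QRFP lay closest to fezf1 (0.568), Gabrr1 (0.602) and RD3L (0.616), and the same limit holds for it. The leading gal row lay closest to Cplx3 (0.873), fezf2 (0.905) and CARTPT 011561-RA (0.958), the last of them itself a member row. For CARTPT 017548-RA they were slc32a1, the vesicular transporter of GABA and glycine (0.643), INA (0.643) and CDK5R1 (0.662). PDYN lay closest to clip3 (0.416), abhd8 (0.488) and MSI1 (0.495). These distances rest on the same 11 libraries and describe them only.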

How the data were processed

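Whole brain, spinal cord and thigh muscle of adult males were used for stranded mRNA libraries. The authors aligned reads to their own Staurois parvus draft genome with STAR, allowing multiple mappings, and counted transcripts with htseq-count; the deposited values are raw read counts per transcript row. The strand setting of the counting is not given in the sources used here, so overlapping and antisense genes, and near-identical copies such as the CARTPT and galanin rows, remain uncertain. Names came from the first word of the deposited annotation. Summary lines that name no gene held 55.5 to 75.3% of each file and were left out.

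Rows were filtered with filterByExpr (about 0.441 CPM in at least 2 libraries), scaled by TMM and tested in 1 edgeR fit of all 11 libraries (edgeR 4.0.16 quasi-likelihood, R 4.3.3) with Benjamini-Hochberg adjustment over 13923 rows and a threshold of 0.05. SE is the size of the Log2FC over the root of F, and each CPM has no prior. Alternatives used DESeq2 1.42.0, other scaling and filters, a replicate block and left-out libraries. The members and lists were chosen with earlier results of these data known. Named were every member and receptor row, the rows of the other lists with the lowest p, up to 4 in each direction, and the 3 rows closest to each leading member row. No pair of libraries agreed within sampling noise (lowest chi-square per degree of freedom 64.7). Whether each library came from a separate frog is not stated for every tissue, so p-values measure the spread between these libraries. The fit was tested on simulated data.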

Additional observations from a re-analysis of the deposited data

Results flagged for a closer look

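Among the 23 sets of spinal cord or leg muscle levels of member rows, 8 had 1 library far from the others by Dixon's ratio. Chance gives this in about 1 of 20 sets of normally distributed values, which low counts are not. Leg muscle 3 stood apart for GAL 013174-RA+013174-RB, at 2.38 CPM (39 reads), and for Cartpt 009995-RA, at 1.95 CPM (32 reads). The same library held trha, the thyrotropin-releasing hormone precursor, at 145 CPM, CCK at 14.1 CPM and Pcsk1 at 7.68 CPM, against at most 8.20, 1.45 and 0.837 CPM in the other leg muscles. The other 6 rest on 1 to 3 reads. They were QRFP at 0.126 CPM (3 reads) in leg muscle 5, UCN at 0.0446 CPM (1 read) in spinal cord 2 and at 0.0421 CPM (1 read) in leg muscle 5, NPS at 0.0291 CPM (1 read) in spinal cord 3 and at 0.127 CPM (3 reads) in leg muscle 4, and CARTPT 017548-RA at 0.0842 CPM (2 reads) in leg muscle 5. In each of these 6 sets every other library had no read. The ratio is then 1 whatever the count, so these 6 flags were fixed in advance and cannot be set against 1 of 20.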

How the results depend on the processing

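The member counts against leg muscle, 11 for brain and 7 for spinal cord, stayed within 1.5 times under the alternatives run, except that 7 rows were called for brain when rows needed at least 10 counts in at least 5 libraries, which QRFP, UCN, NPS and CARTPT 011561-RA did not pass. Other precursors higher in brain than spinal cord numbered 4, and 7 with DESeq2, with the edgeR legacy = FALSE fit and with only the 2 tissues compared, 0 without the lane 2 cords, and 0 to 6 with 1 library left out. Over all rows, calls toward brain moved too, from 166 to 330 with DESeq2, 282 with legacy = FALSE, 336 with only the 2 tissues and 31 without the lane 2 cords. Those higher in spinal cord numbered 0, and 2 with DESeq2 and with the replicate block, 1 with legacy = FALSE, with only the 2 tissues and without leg muscles 3 and 5 (an alternative chosen after seeing the data), and 0 to 1 with 1 library left out. The receptor row called in brain over spinal cord became 0 with library totals alone, no filter, the stricter filter, DESeq2, the 2 tissues alone, the replicate block, no lane 2 cords and without leg muscles 3 and 5, and was 0 to 1 with 1 library left out. The processing genes, 0 in that direction, became 1 with DESeq2, legacy = FALSE and without leg muscles 3 and 5, 2 with the 2 tissues alone, and 0 to 1 with 1 library left out. The causes of these changes were not tested.

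Uncalled Log2FC near 0 changed sign in some settings. For brain over spinal cord, CARTPT 003555-RA was 0.084 with the replicate block and -0.55 to 0.33 with 1 library left out. The range with 1 library left out was -0.75 to 0.24 for crhbp, -0.33 to 0.058 for Pcsk1n, -1.26 to 0.24 for GHRH (014497-RA+014497-RB), -0.11 to 0.63 for crhr1 000528-RC and -0.28 to 0.79 for the crhr1 row of 3 transcripts (000528-RC+000528-RB+000528-RA). Without the lane 2 cords crhbp was 0.76 and Pcsk1n 0.083, and SPX was 0.15 with the block. For Cartpt 009995-RA, spinal cord over leg muscle was 1.40 with library totals alone, 0.40 without leg muscles 3 and 5 and -0.79 to 0.28 with 1 library left out, and brain over leg muscle was -0.33 to 1.70. Library totals alone moved the median Log2FC of all rows to 1.96 (brain) and 1.95 (spinal cord) over leg muscle. Of 8 pairs of same-numbered libraries, 5 correlated above 0.1 in their deviations and 3 did not (r -0.05 to 0.22), so the numbers were not taken to pair the samples. The replicate block moved the calls between brain and spinal cord from 166 to 74 toward brain and from 117 to 71 toward cord. With it NTS (adjusted p = 0.11) and GAL 013174-RA+013174-RB in spinal cord over leg muscle (0.077) were not called, and Uts2r 014953-RA in spinal cord was (0.0097). The main limits are 2 brains and few reads: with 1 to 3 reads in a tissue, only counting intervals bound a ratio.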
